A study of Mus musculus with 8 samples.

Results

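This account follows 50 genes of the cell cycle and of DNA replication in whole mouse kidney. They were chosen by symbol, 22 for entry into S phase and DNA replication (the replication genes) and 28 for mitosis (the mitosis genes), and all 50 were found among the 15948 genes of the deposited table. Kidney RNA was measured in 8 libraries, 5 labelled Sglt2Cre DOCA (called control here) and 3 labelled Arhgef11Sglt2 DOCA. Sglt2 (gene Slc5a2) takes up glucose in the first stretch of the proximal tubule, so a Cre recombinase under its promoter acts in that cell type and not in the rest of the kidney. Arhgef11 is a guanine nucleotide exchange factor, and the study's title speaks of systemic and proximal tubule knockouts. DOCA, in hypertension research deoxycorticosterone acetate, stands in the labels of both groups, so kidneys without it were not analysed here. The labels do not give the alleles of either group, nor whether the Arhgef11Sglt2 kidneys carry the same Cre, and they give no age, sex, strain, dose or time. They also do not say that each library is a separate animal, so p-values measure the spread between these libraries.

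Cells that commit to division switch on D cyclins with Cdk4 and E cyclins with Cdk2, which release E2F factors from the retinoblastoma proteins. E2F targets load the Mcm helicase onto replication origins and supply nucleotides, and later the factors B-Myb (Mybl2) and Foxm1 switch on cyclin B, mitotic kinases and spindle proteins. Few cells of a healthy adult kidney divide, while tubule cells re-enter the cycle after injury.

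The normalized counts used below were obtained by inverting the variance-stabilizing transformation of the deposited log2 values. In units of 1000000, they summed to 43.0 to 46.7 per library, and the depth estimated from the spacing of low values was 33.0 to 59.6 reads in the controls and 51.3 to 57.9 in the Arhgef11Sglt2 libraries. Arhgef11 itself had 3629, 3479, 3682, 3680.2 and 3928 normalized counts in control replicates 1 to 5 and 2935, 3919 and 3905 in Arhgef11Sglt2 replicates 1 to 3, so the groups overlapped (log2 difference -0.04, limma adjusted p = 0.834) and the whole-kidney level did not check the labels. Proximal tubule markers, all 14 measured, summed to 698509 to 1040933 normalized counts in the controls and to 434649 to 549035 in the Arhgef11Sglt2 libraries. Folds are ratios of group means of normalized counts. Tests, log2 differences (Arhgef11Sglt2 minus control) and standard errors (SE) are from limma on the deposited log2 scale, which compresses the differences of low genes, with Benjamini-Hochberg adjustment over all 15948 genes at 0.05.

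No member of either set passed the test, where 2.22% of all genes did (1.59% lower and 0.627% higher). At an unadjusted p of 0.05, 5 of the 22 replication genes were lower and none higher, and none of the 28 mitosis genes passed, against 21.1% of all genes, 12.1% lower and 9.04% higher. The difference was negative for 18 of the 22 replication genes and 27 of the 28 mitosis genes, and for 52.1% of all genes. The median log2 difference was -0.19 in the replication genes and -0.24 in the mitosis genes, beside -0.0070 over all genes. The 95% intervals of the members, in the plot of group differences, included 0 for all but E2f2, Mcm6, Cdc6, Tyms and E2f8. In whole kidney, fewer dividing cells and less RNA per cell cannot be told apart.

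Some markers of kidney cell types did pass the test. Of the 14 proximal tubule markers, 13 had a negative difference and 5 passed the test and were lower, and their sums did not overlap between the groups. Of 15 injured tubule markers, 2 passed and were higher, Lcn2 (3.14-fold) and Krt20 (7.47-fold), and 12 had a positive difference. Of 9 B and plasma cell markers, 3 passed and were lower (Igkc, Jchain and Ighg2c). All 5 measured neutrophil markers had a positive difference and 1 passed, Retnlg, at a low level. It had 2.35 to 17.7 normalized counts in the controls and 25.9 to 38.5 in the Arhgef11Sglt2 libraries. No marker of the thick limb and distal tubule, collecting duct, endothelium, fibroblasts and pericytes, macrophages, T and NK cells or erythroid cells passed. The part of these markers in the differences of the members was not tested.

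**Figure D1:**
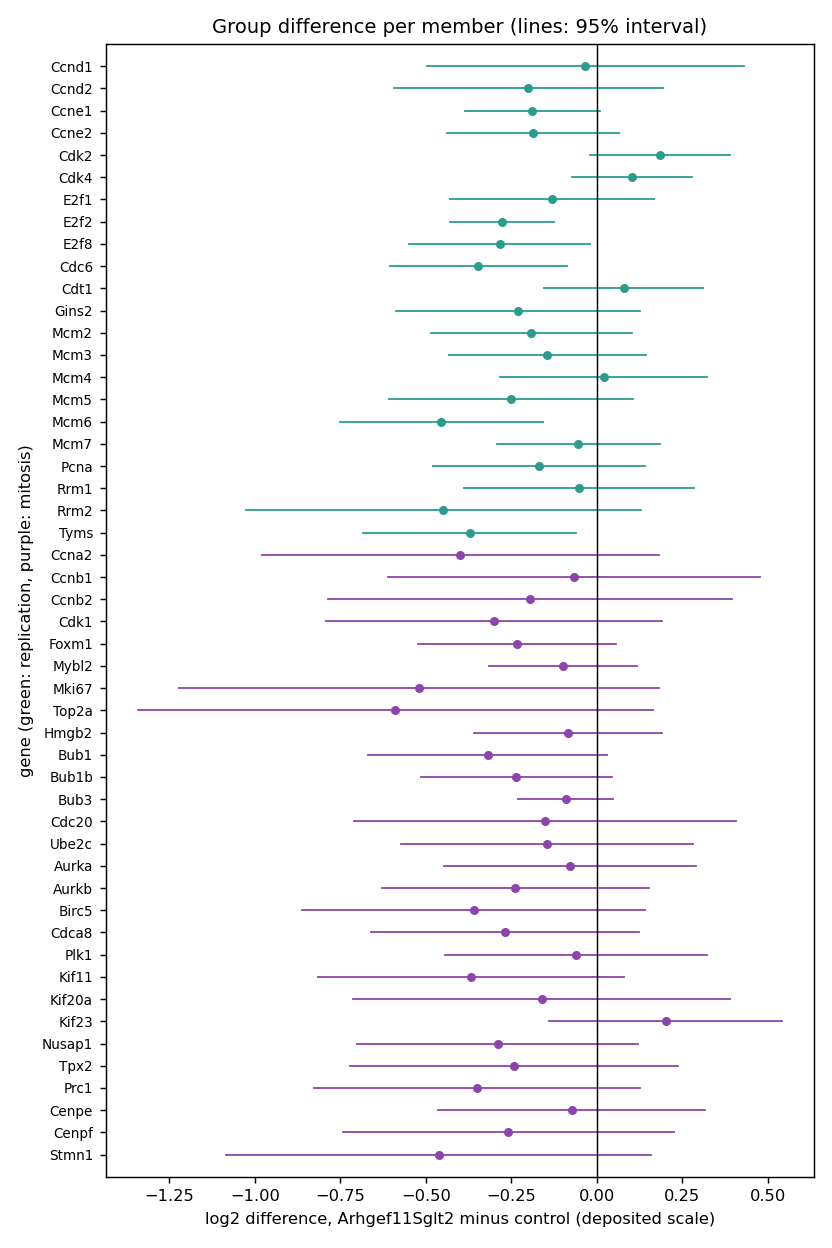
Log2 difference between the Arhgef11Sglt2 and control libraries (x axis, deposited scale) for each of the 50 members (y axis), with points for the limma estimate and lines for its 95% interval. Most points lie left of 0, and 5 intervals, all of the replication genes, exclude it.

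Single libraries moved these counts. The number of mitosis genes with a negative difference was 27 of 28 with all libraries, 20 without control replicate 2 and 23 without Arhgef11Sglt2 replicate 3, and their median was -0.12 in both cases. For the replication genes the count stayed between 16 and 19 of 22 when any library was left out, and the median of -0.19 became -0.070 without Arhgef11Sglt2 replicate 2. Without Arhgef11Sglt2 replicate 1, 4 replication genes passed the test and were lower (Cdc6, E2f2, Tyms and E2f8), in a fit that called 8.36% of all genes. With libraries weighted by how closely they follow the group model (array weights), Cdc6, E2f2 and Mcm6 passed and were lower, where 5.48% of all genes passed.

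The libraries differed among themselves more in the mitosis genes than in the replication genes. The highest library exceeded the lowest by a median of 4.23-fold over the mitosis genes (up to 7.01-fold, for Top2a) and of 2.23-fold over the replication genes (up to 5.38-fold, for E2f8). Control replicate 2 held the highest value of all 8 libraries for 26 of the 28 mitosis genes, where it is highest for 18.2% of all genes. Arhgef11Sglt2 replicate 3 held the lowest value for 19 of the 28, where it is lowest for 25.9% of all genes. The exceptions to the first count were Mybl2, highest in control replicate 4, and Kif23, highest in Arhgef11Sglt2 replicate 3. Both counts were the same with the libraries scaled to equal totals. The replication genes had another order: control replicate 1 was highest for 11 of the 22 (6.85% of all genes) and control replicate 2 for 5, while Arhgef11Sglt2 replicate 2 was lowest for 9 (10.6% of all genes) and replicate 3 for 7.

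**Figure D2:**
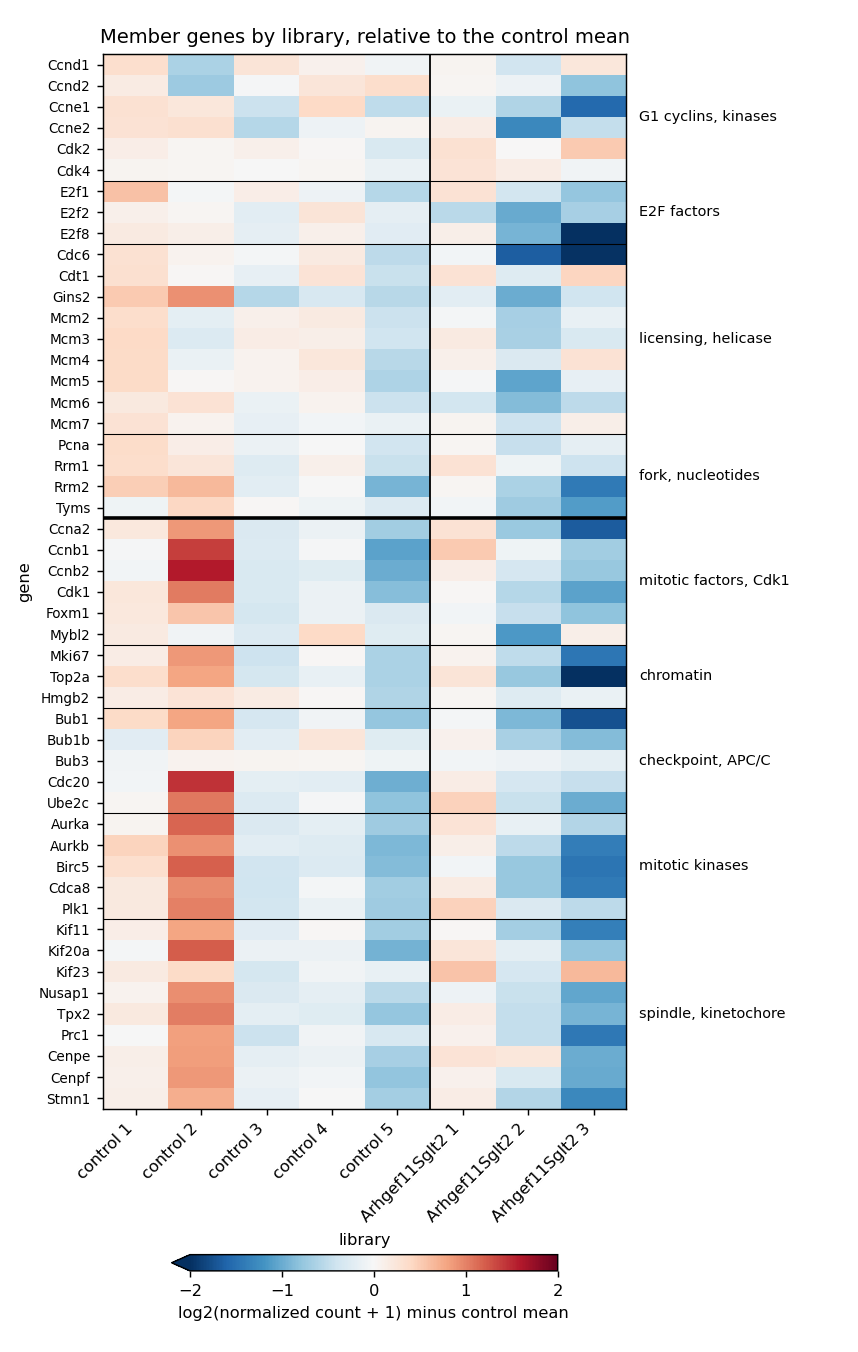
Each row is a member gene and each column a library, coloured by log2(normalized count + 1) minus the mean of the 5 controls, with values below -2 drawn in the darkest blue. The thick line separates the replication genes (above) from the mitosis genes; control replicate 2 is red in nearly all mitosis rows and Arhgef11Sglt2 replicate 3 blue in most.

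As a mean over the 28 mitosis genes, on the deposited log2 scale and relative to the control mean, control replicates 1 to 5 lay at 0.05, 0.51, -0.15, -0.06 and -0.36 and Arhgef11Sglt2 replicates 1 to 3 at 0.07, -0.26 and -0.50. The group means differed by -0.23, less than the control SD of 0.32. Arhgef11Sglt2 replicate 1 thus lay beside control replicate 1, and replicates 2 and 3 of that group lay on either side of control replicate 5. Over the 22 replication genes the controls lay at 0.18, 0.03, -0.04, 0.04 and -0.20 and the Arhgef11Sglt2 libraries at 0.02, -0.30 and -0.22, a difference of -0.17 against a control SD of 0.14. Here Arhgef11Sglt2 replicates 2 and 3 were both below every control, although replicate 3 was only just below control replicate 5, and replicate 1 lay among the controls. The labels say that the kidneys came from 2 studies and do not say which library came from which, so the part of the study in any group difference was not tested. The numbers in the library names fall in 2 ranges, which the labels do not tie to the studies. The difference was negative within both, lower range first: -0.24 and -0.29 for the mitosis genes, -0.19 and -0.14 for the replication genes. The first range held 3 control against 2 Arhgef11Sglt2 libraries, control replicate 2 among them. The second held 2 against 1, the 1 being Arhgef11Sglt2 replicate 3. Each range thus held 1 of the 2 libraries that were extreme for most mitosis genes.

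**Figure D3:**
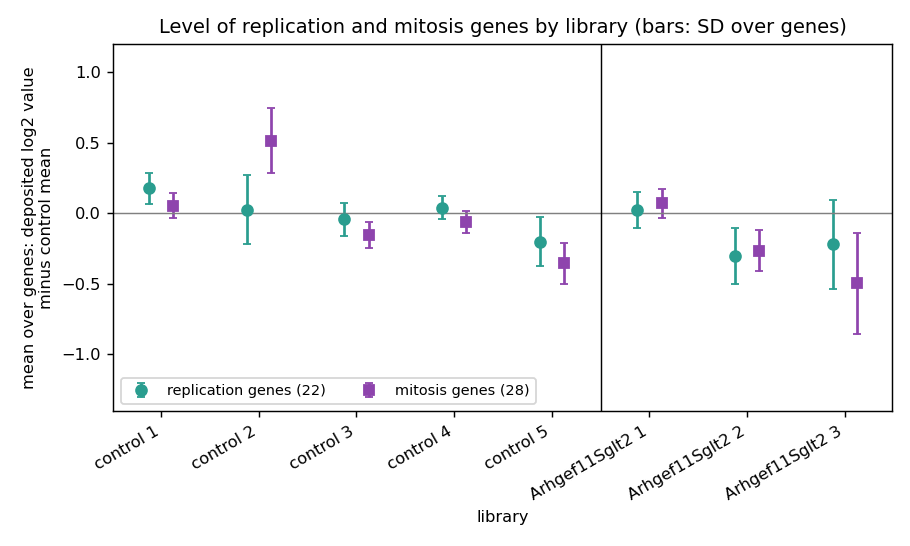
Mean level of the replication genes (circles) and the mitosis genes (squares) in each library, as the deposited log2 value minus the control mean averaged over genes, with bars for the SD over genes. The sets part most in control replicate 2, where the mitosis genes stand at 0.51 and the replication genes at 0.03.

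Within a library, where depth and scaling are shared, the level of the mitosis genes minus that of the replication genes was -0.12, 0.49, -0.11, -0.10 and -0.16 in control replicates 1 to 5 and 0.05, 0.04 and -0.28 in Arhgef11Sglt2 replicates 1 to 3. Control replicate 2 stood apart from the other 4 controls, while the Arhgef11Sglt2 libraries lay on both sides of those 4. The group difference of -0.065 was small beside the control SD of 0.27 and became 0.057 without control replicate 2, and 0.041 without Arhgef11Sglt2 replicate 3, so a difference between the sets in their group effect was not shown.

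Control replicate 2 also differed in marker genes of other cells. Its summed level of 15 injured tubule markers was 614256 normalized counts against 185837 to 408923 in the other controls, and it was the highest control for 6 of the 15. Most of that sum was Spp1 (osteopontin), with 512083 normalized counts in control replicate 2. The other 14 markers summed to 102173 in control replicate 2 and to 55304 to 82296 in the other controls. Most of that remainder was Clu, with 69277 in control replicate 2 and 29194 to 48232 in the other controls. Sox4 had its lowest value of all libraries in control replicate 2. Control replicate 5, the control with the lowest mitosis level, had the sum of 185837 (55304 without Spp1) and was the lowest control for 11 of the 15. Endothelial markers had their lowest value of all libraries in control replicate 2 for 7 of 8 genes (sum 15379, against 22886 to 29170 in the other controls). Arhgef11Sglt2 replicate 1 was the highest library for all 15 injured tubule markers (sum 957074, of which Spp1 made 810293), with its mitosis level close to the control mean. Macrophage markers were lowest in Arhgef11Sglt2 replicate 3 for 9 of 12 genes (sum 9665, against 14246 to 19066 in the controls and 15975 and 27096 in replicates 2 and 1 of its group), and fibroblast and pericyte markers for 6 of 9 (sum 19530, against 39043 to 49546 in the controls). No library was at 0 for a marker of these lists, and their part in the levels of the members was not tested. The estimated depth of control replicate 2, 46.0 in units of 1000000 reads, lay within the range of the others.

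The sets were chosen by role and not by promoter sequence. Those roles go with known regulators, E2F for replication and B-Myb and Foxm1 for mitosis. The motifs below are therefore not independent of the choice. RefSeq promoter windows (build GRCm38.p6, from 250 bases before to 50 after the gene start) were at hand for 39 of the 50 members, 17 of the replication genes and 22 of the mitosis genes. They were searched on both strands for the cell cycle homology region, or CHR, which the B-Myb and Foxm1 complexes bind (TTTGAA), for the NF-Y box (CCAAT), and for E2F sites (TTGGCGC, or in place of it TTCCCGC, or again TTCGCGC, or lastly TTGCCGC). Matches may overlap. CHR letters were in 16 of the 22 mitosis promoters (72.7%) and 3 of the 17 replication promoters (17.6%), beside 14.9% of the 11820 listed genes with a window. All 16 also held CCAAT, which 19 of the 22 mitosis and 11 of the 17 replication promoters had, beside 42.5% of listed genes. E2F letters were in 11 of the 17 replication promoters (64.7%) and 3 of the 22 mitosis promoters (13.6%), beside 17.9%. Among cell cycle genes that are no members, CHR letters were in 32 of 45 mitosis promoters and E2F letters in 23 of 36 replication promoters. A match is a description of the letters, not a bound site.

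**Figure D4:**
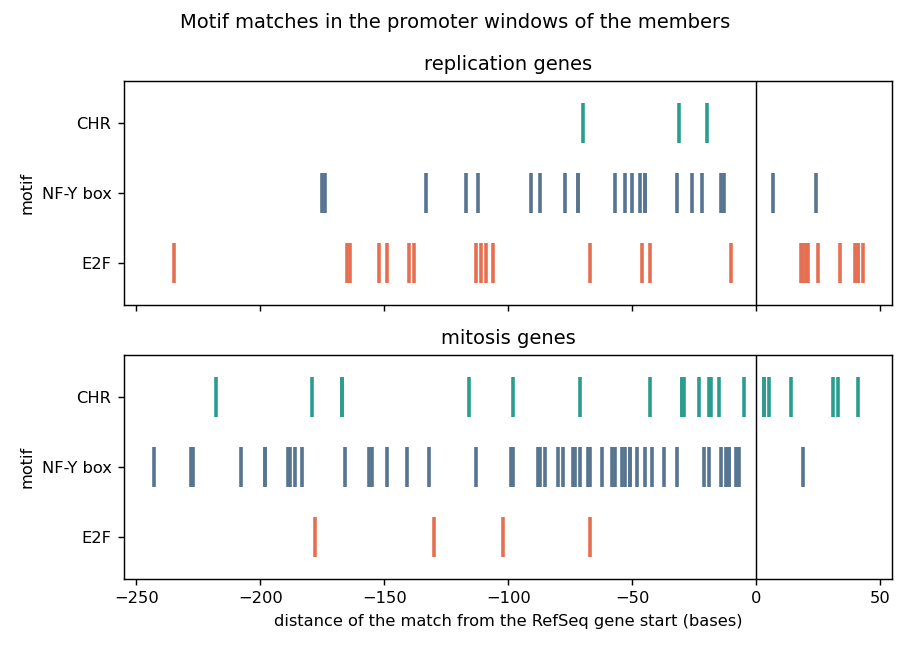
Position of each motif match (ticks) from the RefSeq gene start, in bases, in the promoter windows of the replication genes (top) and the mitosis genes (bottom). CHR matches of the mitosis genes number 23, of which 16 lie within 50 bases of the start, and E2F matches number 25 in the replication genes and 4 in the mitosis genes. Each listed start has its own window (19 windows for 17 replication genes, 24 for 22 mitosis genes). Letters in overlapping windows, as for Bub3 and Prc1, are counted in each window.

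The windows below are shown 5′ to 3′ on the gene's strand with matches in capitals, for the 3 replication genes with the smallest p (Mcm6, Cdc6 and E2f2) and for 4 mitosis genes: Cdk1, with both CHR and E2F letters, Ccnb2 and Plk1, with CHR and CCAAT letters and high in control replicate 2, and Kif23, which has the same letters and a different pattern. Capitals mark every match to the 3 motifs on either strand. Mcm6 lies at chr1:128359656-128359955 on the minus strand, with 5 E2F matches, of which 4 form overlapping pairs. Cdc6 (chr11:98907901-98908200, plus strand) has 1, and the first listed start of E2f2 (chr4:136172024-136172323, plus strand) has 1.
Mcm6: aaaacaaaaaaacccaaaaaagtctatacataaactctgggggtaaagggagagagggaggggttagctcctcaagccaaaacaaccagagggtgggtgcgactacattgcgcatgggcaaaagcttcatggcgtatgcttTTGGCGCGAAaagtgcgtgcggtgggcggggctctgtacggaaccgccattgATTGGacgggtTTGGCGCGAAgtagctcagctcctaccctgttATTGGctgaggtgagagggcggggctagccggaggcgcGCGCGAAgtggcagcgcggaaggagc
Cdc6: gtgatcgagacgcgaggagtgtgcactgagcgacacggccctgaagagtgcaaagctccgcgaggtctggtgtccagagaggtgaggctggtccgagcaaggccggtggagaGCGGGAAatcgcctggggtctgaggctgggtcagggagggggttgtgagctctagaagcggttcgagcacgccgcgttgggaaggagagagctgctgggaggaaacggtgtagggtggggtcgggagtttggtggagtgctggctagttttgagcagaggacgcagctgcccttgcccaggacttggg
E2f2: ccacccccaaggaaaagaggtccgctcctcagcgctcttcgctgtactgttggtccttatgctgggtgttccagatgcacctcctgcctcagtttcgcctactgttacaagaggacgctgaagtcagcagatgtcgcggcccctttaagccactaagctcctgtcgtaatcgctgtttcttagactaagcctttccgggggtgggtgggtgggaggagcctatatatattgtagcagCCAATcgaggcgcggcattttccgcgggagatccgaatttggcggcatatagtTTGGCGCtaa
Cdk1 lies at chr10:69352863-69353162 on the minus strand, with CHR letters that begin at 71 and 15 bases before the start. Ccnb2 (chr9:70421505-70421804, minus strand) has CHR letters 167 bases before the start and from base 5 after it, Plk1 (chr7:122159185-122159484, plus strand) from base 31 and Kif23 (chr9:61946750-61947049, minus strand) from base 3.
Cdk1: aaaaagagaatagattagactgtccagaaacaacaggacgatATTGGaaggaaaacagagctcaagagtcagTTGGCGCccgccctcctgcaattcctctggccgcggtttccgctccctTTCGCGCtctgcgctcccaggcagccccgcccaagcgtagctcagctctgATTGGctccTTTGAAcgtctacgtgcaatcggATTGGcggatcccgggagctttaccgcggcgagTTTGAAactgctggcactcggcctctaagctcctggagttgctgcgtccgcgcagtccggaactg
Ccnb2: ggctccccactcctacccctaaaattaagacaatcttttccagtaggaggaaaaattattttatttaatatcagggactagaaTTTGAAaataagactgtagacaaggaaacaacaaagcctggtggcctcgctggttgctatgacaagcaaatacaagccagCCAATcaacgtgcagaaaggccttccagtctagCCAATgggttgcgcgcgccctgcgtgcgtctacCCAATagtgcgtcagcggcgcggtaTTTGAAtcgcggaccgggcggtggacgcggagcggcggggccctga
Plk1: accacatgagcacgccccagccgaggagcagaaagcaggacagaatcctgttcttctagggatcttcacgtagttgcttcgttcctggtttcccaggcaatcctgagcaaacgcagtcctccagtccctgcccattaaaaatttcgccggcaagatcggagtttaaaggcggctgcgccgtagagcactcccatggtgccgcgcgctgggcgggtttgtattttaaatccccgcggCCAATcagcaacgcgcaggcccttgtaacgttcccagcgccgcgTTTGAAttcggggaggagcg
Kif23: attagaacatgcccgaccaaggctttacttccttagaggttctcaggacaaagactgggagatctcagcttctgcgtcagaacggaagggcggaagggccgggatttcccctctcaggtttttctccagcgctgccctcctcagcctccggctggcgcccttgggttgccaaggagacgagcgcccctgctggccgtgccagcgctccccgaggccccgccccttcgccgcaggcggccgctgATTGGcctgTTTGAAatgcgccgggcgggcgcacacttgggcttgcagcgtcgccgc

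The D cyclins carry growth signals into the cycle. Ccnd1 (cyclin D1) had 19961, 10219, 18877, 16807 and 15058 normalized counts in control replicates 1 to 5 and 16328, 12118 and 18460.4 in Arhgef11Sglt2 replicates 1 to 3. Ccnd2 (cyclin D2) had 1262, 684, 1114, 1340.0 and 1444 in the controls and 1168, 1053 and 647 in the other group. Control replicate 2 was the lowest of all libraries for Ccnd1 and the lowest control for Ccnd2. The lowest of all libraries for Ccnd2 was Arhgef11Sglt2 replicate 3, at 0.553 of the control mean, as for most mitosis genes. The groups overlapped for both (limma log2 difference of -0.03 with SE 0.21 and adjusted p = 0.946 for Ccnd1, limma log2 difference of -0.20 with SE 0.18 and adjusted p = 0.551 for Ccnd2).

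Among the kinases and E cyclins that start S phase, the sign of the difference varied and none passed the test. Cdk4, the partner of D cyclins, was 1.09-fold of the control mean in the Arhgef11Sglt2 group and Cdk2, the partner of E cyclins, 1.22-fold, with limma adjusted p of 0.487 and 0.283. Cdk2 had 778, 722, 759, 717 and 574 normalized counts in the controls and 875, 712 and 1021 in the Arhgef11Sglt2 libraries, so replicates 1 and 3 were above all controls. Ccne1 (cyclin E1) had 119.8, 114, 71.9, 129 and 68.3 against 88.6, 63.5 and 32.3 (limma log2 difference of -0.19 with SE 0.09 and adjusted p = 0.259), with replicate 3 of the Arhgef11Sglt2 group lowest. Replicate 3 was thus the highest library for Cdk2 and the lowest for Ccne1. Ccne2 (cyclin E2) was lowest in replicate 2 of that group instead, at 82.2 normalized counts against 136 to 255 in the controls.

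The E2F factors divide into the activators E2f1 and E2f2, which switch on S phase genes, and the repressor E2f8, which ends that wave. E2f2 had 256, 244, 204, 283 and 209 normalized counts in control replicates 1 to 5 and 164, 118 and 149 in Arhgef11Sglt2 replicates 1 to 3. It was the 1 member of 50 whose groups did not overlap, which 8.14% of all genes showed in the lower direction and 6.2% in the higher. The group mean was 1.67-fold lower (limma log2 difference of -0.28 with SE 0.07 and adjusted p = 0.065; two-sided exact permutation p = 0.0179, unadjusted and the smallest possible over 56 splits). E2f8 had 198, 189, 154, 188 and 148 in the controls and 189, 90.7 and 36.8 in the Arhgef11Sglt2 libraries, so replicate 1 lay among the controls and replicate 3 at 0.210 of their mean (limma log2 difference of -0.28 with SE 0.12 and adjusted p = 0.207). The group mean of E2f8 was 1.67-fold lower, 2.75-fold lower without replicate 1 and 1.26-fold lower without replicate 3. E2f1 had 511, 332, 373, 319.9 and 230.1 against 417, 265 and 199, with overlap (limma log2 difference of -0.13 with SE 0.13 and adjusted p = 0.614).

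**Figure D5:**
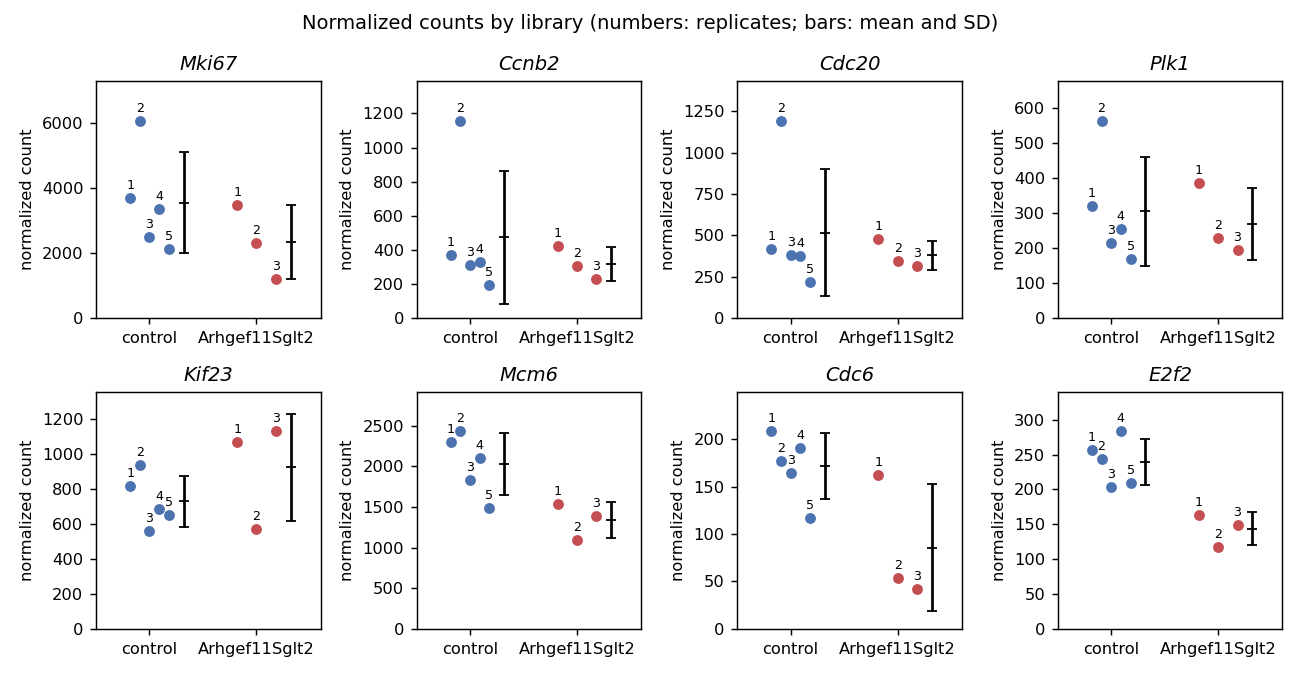
Normalized counts of 8 members by library, controls in blue and Arhgef11Sglt2 in red, each point numbered by replicate, with the mean and SD of each group beside it. For Ccnb2 and Cdc20, control replicate 2 sits at 1158 and 1195, above all other libraries, while E2f2 alone shows groups without overlap.

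Origin licensing loads the Mcm2 to Mcm7 helicase with the help of Cdc6 and Cdt1, and the Gins complex, of which Gins2 is a part, later activates it. Cdc6 had 208, 177, 164, 191 and 117 normalized counts in the controls and 162, 53.1 and 41.9 in the Arhgef11Sglt2 libraries. Replicates 2 and 3 were below every control and replicate 1 was not. The group mean was 2.00-fold lower (limma log2 difference of -0.35 with SE 0.12 and adjusted p = 0.135, with an unadjusted exact permutation p of 0.0357). It was 3.61-fold lower without replicate 1 and 1.59-fold lower without replicate 3. Cdt1, by contrast, had 415, 338, 299, 404 and 244 against 408, 280.2 and 450.5, with its highest value in replicate 3 (limma log2 difference of 0.08 with SE 0.10 and adjusted p = 0.711). Gins2 had 372, 490.1, 173, 206 and 176 against 223, 129.8 and 197, high in control replicates 1 and 2 (limma log2 difference of -0.23 with SE 0.16 and adjusted p = 0.441).

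Mcm6 was the helicase subunit with the largest difference. It had 2295, 2431, 1828, 2102 and 1482 normalized counts in control replicates 1 to 5 and 1542, 1094 and 1384 in Arhgef11Sglt2 replicates 1 to 3, and only control replicate 5 fell within the range of the other group. The group mean was 1.51-fold lower (limma log2 difference of -0.46 with SE 0.13 and adjusted p = 0.101). Mcm2 had 1289.5, 880.2, 1090.2, 1142 and 756 against 987, 639.6 and 911, and Mcm5 1035, 805, 835, 871 and 515 against 776, 379 and 705. All subunits but Mcm4 were lowest in replicate 2 of the Arhgef11Sglt2 group, where Mcm2 stood at 0.620, Mcm3 at 0.624, Mcm5 at 0.467, Mcm6 at 0.539 and Mcm7 at 0.742 of the control mean. Mcm4 and Mcm7 were above the control mean in replicate 3 of that group, at 1.19 and 1.08 of it. Over the 6 subunits the limma adjusted p ran from 0.101 for Mcm6 to 0.95 for Mcm4, and none was called.

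Replicates 2 and 3 of the Arhgef11Sglt2 group were both below the control level in each role of the replication genes. Over the 9 licensing and helicase genes replicate 2 stood at 0.591 of the control level (geometric mean over genes) and replicate 3 at 0.814. Over the 6 G1 cyclins and kinases they stood at 0.774 and 0.780, over the 3 E2F factors at 0.587 and 0.429, and over the 4 fork and nucleotide genes at 0.720 and 0.582. Cdc6 (0.310 and 0.244), E2f8 (0.517 and 0.210) and E2f2 (0.493 and 0.622) were low in both. In replicate 3 the replication genes ran from 0.210 (E2f8) and 0.244 (Cdc6) of the control mean to 1.33 (Cdt1) and 1.44 (Cdk2). These are values of single libraries, and no test was made of them.

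Pcna, the sliding clamp of the replication fork, had 3357, 2873, 2391, 2598 and 2009.5 normalized counts in the controls and 2687, 1886 and 2289 in the Arhgef11Sglt2 libraries (limma log2 difference of -0.17 with SE 0.14 and adjusted p = 0.52). Rrm2, the regulated subunit of ribonucleotide reductase, had 1659, 1848, 1016, 1178 and 618 against 1206, 760.0 and 441, and its partner Rrm1 1644, 1527, 1083, 1386 and 943 against 1571, 1212 and 971. Tyms, which makes thymidylate, had 775, 1100.4, 836, 776 and 683 against 795, 504 and 379. For Tyms and Rrm2, replicate 3 of the Arhgef11Sglt2 group was the lowest library and control replicate 2 the highest, as in the mitosis genes. Tyms was 1.49-fold lower (limma log2 difference of -0.37 with SE 0.14 and adjusted p = 0.17), and Rrm2 1.57-fold lower (limma log2 difference of -0.45 with SE 0.26 and adjusted p = 0.349).

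In the mitosis genes, Mki67 (the antigen Ki-67, on the surface of mitotic chromosomes) had 3686, 6063, 2489.6, 3348 and 2131 normalized counts in control replicates 1 to 5 and 3470.4, 2316 and 1216 in Arhgef11Sglt2 replicates 1 to 3. Top2a, the topoisomerase that untangles chromosomes, had 2411, 3269, 1483, 1699 and 1223 against 2260.4, 1115 and 466. For both, control replicate 2 was highest and Arhgef11Sglt2 replicate 3 lowest, and replicate 1 of that group lay among the controls. The means were 1.52-fold and 1.58-fold lower (limma log2 difference of -0.52 with SE 0.31 and adjusted p = 0.374 for Mki67, limma log2 difference of -0.59 with SE 0.34 and adjusted p = 0.346 for Top2a), and they were 1.25-fold and 1.33-fold lower without control replicate 2, 2.01-fold and 2.55-fold lower without Arhgef11Sglt2 replicate 1, and 1.22-fold and 1.19-fold lower without Arhgef11Sglt2 replicate 3. Hmgb2, a chromatin protein, varied less, from 639 to 1169.6 normalized counts over all libraries.

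Cyclins A and B with Cdk1 drive mitosis. Ccna2 (cyclin A2) had 929, 1466, 657, 739 and 494 normalized counts in the controls and 977, 478 and 252 in the Arhgef11Sglt2 libraries, and Cdk1 645, 1126, 447, 507 and 304 against 561, 372 and 262. Ccnb1 (cyclin B1) had 355, 940.4, 296, 351 and 171 against 514, 337 and 222, and Ccnb2 (cyclin B2) 373, 1158, 314, 327 and 193 against 424, 306 and 227. The cyclins B were 3.21-fold and 3.84-fold higher in control replicate 2 than the mean of the other controls, while Ccna2 was 2.08-fold and Cdk1 2.37-fold higher. Without that library the log2 difference of Ccnb1 went from -0.07 to 0.13 and that of Ccnb2 from -0.20 to 0.035. Ccna2 was 1.51-fold lower with all libraries and 2.35-fold lower without Arhgef11Sglt2 replicate 1. It was 1.24-fold lower without control replicate 2 and 1.18-fold lower without Arhgef11Sglt2 replicate 3. None passed the test (limma log2 difference of -0.40 with SE 0.26 and adjusted p = 0.41 for Ccna2, limma log2 difference of -0.30 with SE 0.22 and adjusted p = 0.464 for Cdk1, limma log2 difference of -0.07 with SE 0.24 and adjusted p = 0.905 for Ccnb1, limma log2 difference of -0.20 with SE 0.26 and adjusted p = 0.715 for Ccnb2).

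The factors that switch these genes on varied less than the cyclins: the highest library exceeded the lowest 2.56-fold for Foxm1 and 2.96-fold for Mybl2, against 5.81-fold for Ccna2. Foxm1 had 591, 752, 403, 472 and 417 normalized counts in the controls and 495, 372 and 293 in the Arhgef11Sglt2 libraries, highest in control replicate 2 (limma log2 difference of -0.23 with SE 0.13 and adjusted p = 0.33). Mybl2 had 179, 149.9, 130.4, 209 and 134 against 161, 70.8 and 171, and control replicate 2 was not high (limma log2 difference of -0.10 with SE 0.10 and adjusted p = 0.59). The lowest library for Mybl2 was replicate 2 of the Arhgef11Sglt2 group, as for most helicase genes, and replicate 3 lay near the control mean.

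Of the spindle checkpoint and the ubiquitin ligase it restrains, Bub1 (a checkpoint kinase) had 299.9, 397, 182, 217 and 134 normalized counts in the controls and 222, 123 and 67.7 in the Arhgef11Sglt2 libraries (limma log2 difference of -0.32 with SE 0.16 and adjusted p = 0.275). Cdc20, which activates that ligase, had 419, 1195, 380.1, 375 and 220.3 against 481, 343 and 316, 3.43-fold higher in control replicate 2 than in the other controls. Ube2c, the ubiquitin-conjugating enzyme of the same ligase, was 2.45-fold higher there. Bub1b, a checkpoint protein that binds the same ligase, stood at 0.539 of the control mean in Arhgef11Sglt2 replicate 3. Bub3, a checkpoint protein with uses outside mitosis, ran only from 1504 to 1811 over all libraries. Cdc20, like the cyclins B, had its lowest value in control replicate 5 and not in Arhgef11Sglt2 replicate 3.

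Birc5 (survivin), Cdca8 (borealin) and Aurkb form the chromosomal passenger complex, and Birc5 had 477, 872, 289.8, 312 and 208 normalized counts in the controls and 364, 223 and 137 in the Arhgef11Sglt2 libraries (1.79-fold lower; limma log2 difference of -0.36 with SE 0.22 and adjusted p = 0.389). Aurkb and Cdca8 stood at 0.346 of the control mean in Arhgef11Sglt2 replicate 3 and Birc5 at 0.318. Aurka and Plk1, kinases of the centrosome and of mitotic entry, stood at 0.595 and 0.634 there and were lowest in control replicate 5. Plk1 had 321, 565, 215, 256 and 169.9 against 386, 228 and 194 (limma log2 difference of -0.06 with SE 0.17 and adjusted p = 0.872).

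Among spindle and cytokinesis genes, Stmn1 (stathmin, which destabilizes microtubules) had 3018, 4606, 2497, 2772 and 1735 normalized counts in the controls and 3088, 1849.8 and 1138 in the Arhgef11Sglt2 libraries (limma log2 difference of -0.46 with SE 0.28 and adjusted p = 0.372). Kif11, the motor that separates the poles, was at a mean 1.57-fold lower (limma adjusted p = 0.321), and Prc1, which bundles the central spindle, 1.47-fold lower (limma adjusted p = 0.375). Kif23, the motor subunit of the complex that positions the cleavage furrow, had another order of libraries. It had 818, 935, 562, 686 and 649.8 normalized counts in control replicates 1 to 5 and 1069, 572 and 1131 in Arhgef11Sglt2 replicates 1 to 3, and was the 1 mitosis gene with a positive difference (limma log2 difference of 0.20 with SE 0.15 and adjusted p = 0.481). In Arhgef11Sglt2 replicate 3 Kif23 stood at 1.55 of the control mean, where the other mitosis genes but Mybl2 were below it. The remaining spindle genes Kif20a, Nusap1, Tpx2, Cenpe and Cenpf stood between 0.453 and 0.509 of the control mean there.

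Mitosis genes that are no members had the same extreme libraries. Of 57 further mitosis genes, 52 were highest in control replicate 2 (18.2% of all genes) and 41 lowest in Arhgef11Sglt2 replicate 3 (25.9% of all genes). A negative difference was found for 53 (52.1% of all genes), and none passed the test (median -0.17). Beside 12.1% of all genes, 4 of the 57 were lower at an unadjusted p of 0.05. The smallest p among them belonged to Esco2, a cohesin acetyltransferase, with 335 ± 159 normalized counts in the controls (SD, n = 5) against 143 ± 87.5 (SD, n = 3; limma log2 difference of -0.50 with SE 0.18 and adjusted p = 0.163), and to Cks2, a Cdk1 subunit (limma log2 difference of -0.35 with SE 0.13 and adjusted p = 0.171). Of 46 further replication genes, 38 had a negative difference (median -0.12). At an unadjusted p of 0.05, 9 were lower (12.1% of all genes), and 1 passed the test and was lower (1.59% of all genes). Exo1, a repair exonuclease, did not pass (limma log2 difference of -0.37 with SE 0.11 and adjusted p = 0.102) but did without Arhgef11Sglt2 replicate 1 and with array weights, its adjusted p running from 0.0292 to 0.283 over the alternatives.

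Of the brakes on the cycle, Cdkn1a (p21, an inhibitor of cyclin-dependent kinases) had 1090.4, 743, 998, 1244 and 763 normalized counts in the controls and 1643, 1412 and 2203 in the Arhgef11Sglt2 libraries. The groups did not overlap, which 6.2% of all genes showed in the higher direction. Its mean was 1.81-fold higher in the Arhgef11Sglt2 group (limma log2 difference of 0.63 with SE 0.14 and adjusted p = 0.0546), just short of the threshold. It passed under 4 of the alternatives, and its adjusted p ran from 0.0449 to 0.202 over them all. None of the other 6 measured inhibitors passed, of which 4 had a negative difference; Cdkn2b, next by p, had an adjusted p of 0.48. Among 13 genes of the retinoblastoma family and its complexes none passed. Rbl1 (p107), whose gene E2F also regulates, had 838, 869.8, 823, 847 and 719.5 against 699, 572 and 538 (limma log2 difference of -0.28 with SE 0.07 and adjusted p = 0.079). Its groups did not overlap, which 8.14% of all genes showed in the lower direction. It passed without Arhgef11Sglt2 replicate 1 and with array weights, and its adjusted p ran from 0.0246 to 0.302 over the alternatives. The repressor E2f7 followed by p (limma log2 difference of -0.22 with SE 0.09 and adjusted p = 0.204).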

How the data were processed

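Poly(A) RNA of mouse kidney was made into stranded libraries, per the labels' protocols. Salmon 1.10.0, DESeq2 and the build GRCm39 were used by the authors, per the submitters' processing notes; which annotation and gene filter applied is not stated. Deposited were log2 values from the authors' variance-stabilizing step. All 8 columns share a minimum of 8.13, the value of a zero count, from which normalized counts follow in closed form. In each library, 32.9 to 51.4% of the low values were whole multiples of a step (within 0.02 of a step). That was too few to recover reads, but the step gave a depth estimate. Salmon shares reads among similar transcripts, so genes with near-identical copies are uncertain.

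Symbols matched 15902 identifiers (99.7%). limma 3.58.1 (R 4.3.3) was fitted with a variance trend on 8 libraries and 15948 genes, with group as the only term and 6 residual degrees of freedom. On simulated data it recovered 59% of 200 genes changed by 0.5 on the log2 scale and 97.5% of 200 changed by 1. Those genes were drawn at random from all genes, with noise independent between genes. The rates thus do not describe the members, whose SE reached 0.34 (Top2a) and which vary together. Smaller changes were not simulated. Single members also had an exact permutation test. The members and lists were chosen with earlier results of these data known. Genes given in full were the largest difference of each role and a fixed set; E2f1, E2f2, Cdc6, Cdt1, Gins2, Mcm5, Rrm1, Tyms, Cdk2, Ccne1, Foxm1, Mybl2, Ccnb2, Cdc20, Plk1, Kif23 and Rbl1 were given in full after their values were seen. Of further pathway genes, those past the threshold and the 2 with the smallest p of each list were named, except 1 gene that is not reported here. H2az1, Cdkn2a and Lin54 were listed and not matched. Alternatives covered each library left out, blocks for replicate number and number range, filter, variance model, weights, pseudocounts, scaling and threshold.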

Additional observations from a re-analysis of the deposited data

Results flagged for a closer look

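In 53 quantities (50 members, the level of each set and their difference), the extreme control was compared with the other 4 controls by the gap to its neighbour over the whole range, against a limit of 0.710; chance passes about 1 group in 20. Control replicate 2 lay apart in 7 of them, 6 being mitosis genes, no replication gene passed, and the Arhgef11Sglt2 group of 3 was not tested. The members entered as normalized counts, where a high value stands further apart than on a log2 scale. Single members were not compared in this way on the log2 scale. The 6 genes share 1 high library, so they are not independent of each other. The normalized count of control replicate 2 was 940.4 for Ccnb1 (other controls 171 to 355), 1158 for Ccnb2 (193 to 373) and 1195 for Cdc20 (220 to 419). It was 505 for Aurka (137 to 233), 1369 for Kif20a (305 to 572) and 1369.9 for Prc1 (570 to 769). The level of the mitosis genes minus that of the replication genes was 0.49 in this library on the deposited log2 scale and from -0.16 to -0.10 in the other controls.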

How the results depend on the processing

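The count of members past the threshold, 0 with all libraries, ran from 0 to 4 when single libraries were left out, was 3 with array weights (Cdc6, E2f2 and Mcm6, in a fit that called 5.48% of genes) and was 1 at an adjusted p of 0.10. The count over all genes, 354, ran from 24 (without control replicate 4) to 1334 (without Arhgef11Sglt2 replicate 1), and was 0 with the replicate block, 874 with array weights and 1038 at an adjusted p of 0.10. The count of further pathway genes, 1, ran from 0 to 9 with single libraries left out; it was 0 with the replicate block and with a block for library number range, 2 with the filter on a mean normalized count of 100 and with equal totals, and 3 with array weights. Same-numbered libraries of the 2 groups did not deviate together (correlations of -0.175, -0.088 and -0.0068 over genes), so the numbers were not taken as pairs. The replicate block called 0 members, as the fit without it did, and left the median difference at -0.22 for the replication genes and -0.39 for the mitosis genes. The median differences of the sets moved by less than 1 control SD under all alternatives run; that of the mitosis genes ran from -0.37 to -0.12 with single libraries left out, and that of the replication genes from -0.27 to -0.070. As log2(normalized count + 1) the medians were -0.29 for replication and -0.43 for mitosis. The level of the mitosis genes minus that of the replication genes changed sign without control replicate 2 (0.057), without Arhgef11Sglt2 replicate 3 (0.041) and with array weights (0.053).

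The sign of 13 members changed under some alternative. Leaving out single libraries gave log2 differences from -0.18 to 0.13 for Ccnd1, -0.067 to 0.12 for Mcm4, -0.13 to 0.065 for Mcm7, -0.18 to 0.069 for Rrm1, -0.22 to 0.13 for Ccnb1, -0.32 to 0.035 for Ccnb2, -0.17 to 0.022 for Mybl2, -0.28 to 0.066 for Cdc20, -0.16 to 0.056 for Aurka, -0.19 to 0.062 for Plk1, -0.30 to 0.034 for Kif20a and -0.17 to 0.11 for Cenpe. With array weights Cdt1 was -0.052, Mcm4 -0.15 and Cenpe 0.059; with the replicate block Mcm4 was -0.049; with equal totals Ccnd1 was 0.0035. The cause was not tested. Depth limits the lowest members most: Ccne1 had 32.3 normalized counts in its lowest library.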
